A study of Mus musculus with 10 samples.

Results

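Carmn and Bvht are a pair of long non-coding RNA genes that point at each other across the Mir143 and Mir145a microRNA genes on mouse chromosome 18. They were taken from the transcript table by matching transcript identifiers to GENCODE release M21 and keeping every transcript of either symbol. This gave 4 transcripts of 20741 in the table, 2 for each gene, and 2 genes of 14771 after transcripts were summed per gene. The RNA was extracted from left ventricular tissue of the C57BL/6 strain at 6 weeks past TAC, an operation that narrows the aorta and makes the ventricle pump against a raised pressure. There were 4 samples with a knockout of Sirt5, which encodes a mitochondrial enzyme that removes succinyl and related groups from lysines (replicate numbers 2, 3, 4 and 5), and 6 wild-type samples (numbers 1, 3, 4, 5, 6 and 7). The series' text speaks of male mice aged 5 weeks, of a conventional CRISPR-Cas9 knockout, and of a tamoxifen-inducible Cre-ERT2 system with 1 mg of tamoxifen daily over 10 days, ending 4 weeks before TAC, without saying which animals each applies to. All 10 samples carry the same TAC label, so the knockout was compared after the operation alone. The labels do not tie each sample to an animal of its own; the p-values below therefore reflect how far these libraries scatter, part of which may be technical.

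Carmn is known as a transcript of smooth muscle cells and pericytes, where it works with the coactivator myocardin on contractile genes, and its human counterpart was described in cardiac precursor cells. The microRNAs next to it, miR-143 and miR-145, are known to favour the contractile state of vascular smooth muscle. Bvht (Braveheart) is known from mouse embryonic stem cells, in which it is needed for commitment to the cardiovascular lineage and interacts with the Polycomb repressive complex PRC2. In whole ventricle, fewer cells of a type and less RNA per cell cannot be told apart. The table held 0 of 23 protein-coding markers of smooth muscle, pericytes, cardiomyocytes, endothelium, fibroblasts and leukocytes, and 0 transcripts of Sirt5, Mir143 or Mir145a. Cell types therefore could not be followed by these markers, nor the genotype and the microRNAs by their own transcripts.

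On GRCm38, Carmn (ENSMUSG00000097324.8, class lincRNA) lies at 61649625 to 61665537 of chromosome 18 on the minus strand. Bvht (ENSMUSG00000098098.7, class lincRNA) lies at 61639542 to 61647472 on the plus strand. The genes are transcribed towards each other and end 2152 bases apart, with no shared base in the annotation. Both microRNA hairpins lie in that gap, on the strand of Carmn. Mir143 (61649196 to 61649258) begins 366 bases past the annotated end of Carmn, and Mir145a (61647825 to 61647894) lies 352 bases from the end of Bvht. The Carmn transcript Carmn-201 has 3 exons and 1778 bases, and Carmn-202 has 4 exons and 988 bases. They share 462 exonic bases and part at the 3′ end, where Carmn-201 carries a long last exon and Carmn-202 splices on to a further one. Bvht-201 and Bvht-202 have 3 exons each, with 483 and 588 bases, of which 372 are common to both.

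**Figure D1:**
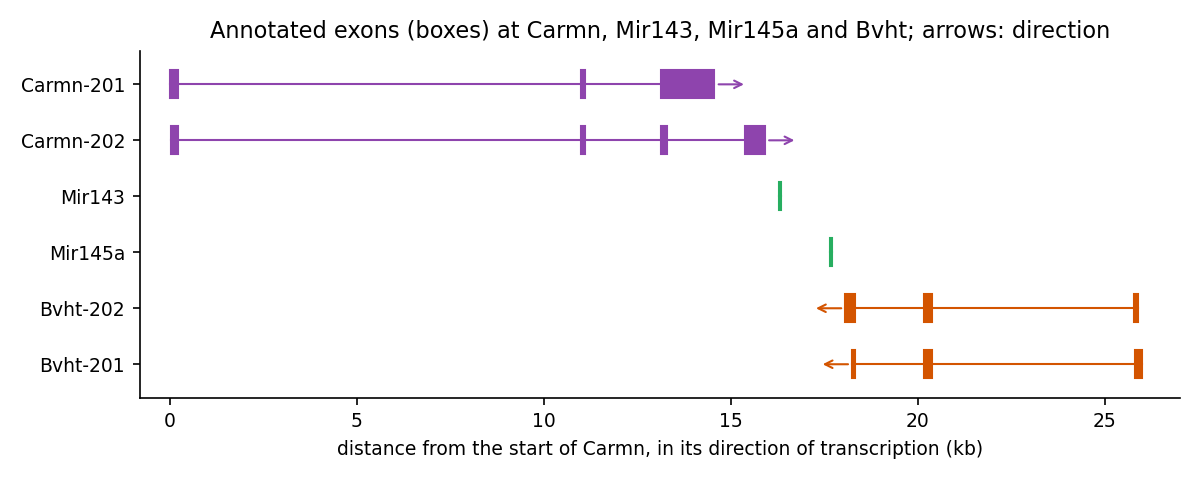
Annotated exons (boxes) of the 4 transcripts and the 2 microRNA hairpins, by distance in kilobases from the start of Carmn in its direction of transcription, with arrows for the direction of each gene. The genes face each other, and the hairpins sit in the 2152 bases between their ends.

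Values are FPKM (fragments scaled to the length of the transcript and to the size of the library), as the authors deposited them. Levels are therefore per length, which allows a rough comparison between the 2 genes. The transcripts of Bvht (483 and 588 bases) are shorter than those of Carmn (1778 and 988 bases). Whether length biases the comparison was not tested. Single-exon transcripts of low value were taken to step by the worth of 1 fragment, with the step sought within a set range. On that basis the libraries were estimated to hold 22700000 to 25800000 fragments in knockout and 24700000 to 29800000 in wild type. In these libraries Carmn rested on 305 to 425 fragments in knockout and 416 to 788 in wild type, while Bvht rested on 21 to 28 and 14 to 28. All fragment numbers, counting errors and intervals given here rest on that step, and the intervals cover counting error only. Knockout replicate 5 stood apart in the nuclear RNA Malat1, with 951 FPKM against 58.4 to 81.8 FPKM in the other 9 libraries. Rmrp, the RNA component of RNase MRP, was listed at 0 in 4 libraries (knockout replicate 5 and wild-type replicates 3, 5 and 6) and at 824 to 1434 FPKM in the other 6. The series' text names 2 kits for removal of ribosomal RNA and 2 sequencers without assigning them to samples, so a uniform preparation cannot be assumed, and its part in the results was not tested.

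Carmn was among the more abundant annotated genes tested, at rank 13 of 261 by mean FPKM, and its knockout mean was 0.745 times its wild-type mean. Its summed level was 9.47, 12.5, 9.42 and 9.56 FPKM in knockout replicates 2, 3, 4 and 5, against a lowest value of 11.95, a median of 12.6 and a highest value of 18.0 FPKM in the 6 wild-type libraries. Of the knockout libraries, 3 lay below every wild-type library, and replicate 3 lay among them, so the genotypes overlapped. The wild-type high was replicate 4, followed by replicate 3 at 15.3 FPKM. The spread between libraries was wider than counting: the coefficient of variation was 14.8% in knockout and 17.5% in wild type, where counting alone gives 4.85 to 5.73% and 3.56 to 4.90% per library. The log2 fold change on log2(FPKM + 1) was -0.39, with a standard error of 0.200, a 95% interval of -0.83 to 0.05 and an adjusted p of 0.499 (limma, Benjamini-Hochberg over 1122 genes and loci). The difference did not pass the test, and the interval leaves room both for no change and for a larger decrease.

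Both Carmn isoforms were present in each library at similar levels. Carmn-201, the longer transcript, had 4.92, 6.68, 5.23 and 5.19 FPKM in knockout replicates 2, 3, 4 and 5. In wild type it had a lowest value of 6.17, a median of 6.76 and a highest value of 10.97 FPKM. Carmn-202, the form that extends towards Mir143, had 4.55, 5.84, 4.19 and 4.36 FPKM in these 4 knockout libraries, against a lowest value of 5.48, a median of 6.06 and a highest value of 7.48 FPKM in wild type. In both isoforms knockout replicate 3 alone reached into the wild-type range. Tested among 1131 transcripts, the fold changes on the log2 scale were -0.36 for Carmn-201 (SE 0.190) and -0.34 for Carmn-202 (SE 0.157), with limma adjusted p of 0.515 and 0.431. The isoforms varied together across the 10 libraries, with a Pearson r of 0.814 (permutation p = 0.00209, adjusted over 3 relations 0.00313) and a Spearman rho of 0.745 (permutation p = 0.0174, adjusted 0.0261). Without the 2 libraries farthest from the median of Carmn-201, r was 0.870 (permutation p = 0.00942, n = 8), and within wild type it was 0.594 (exact permutation p = 0.204, n = 6). Both estimates draw on the same 462 exonic bases. The values over all 10 libraries also pool genotypes whose means lay apart in the same direction for both isoforms. This relation was not computed after rescaling to a common sum.

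The balance of the Carmn isoforms was nearly the same in both genotypes. Carmn-201 held 52.0, 53.4, 55.5 and 54.3% of Carmn FPKM in knockout replicates 2, 3, 4 and 5 (mean 53.8 ± 1.51%, SD, n = 4). In wild type its share ran from 48.7 to 61.0%, with a mean of 54.0 ± 4.29% (SD, n = 6), and both ends of that range, replicate 6 at the low end and replicate 4 at the high end, lay outside the knockout values. The means differed by -0.17 percentage points, with an exact permutation p of 0.967 (two-sided, all 210 assignments of the 4 knockout labels, where the smallest possible p is 0.00476). The sign of so small a difference turned when knockout replicate 2, wild-type replicate 4 or wild-type replicate 5 was left out, with differences between -1.23 and 1.24 points over the single omissions. Among the 3 knockout and 3 wild-type libraries with Rmrp above 0 it was -2.32 points (exact permutation p = 0.600, where the smallest possible is 0.1).

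**Figure D2:**
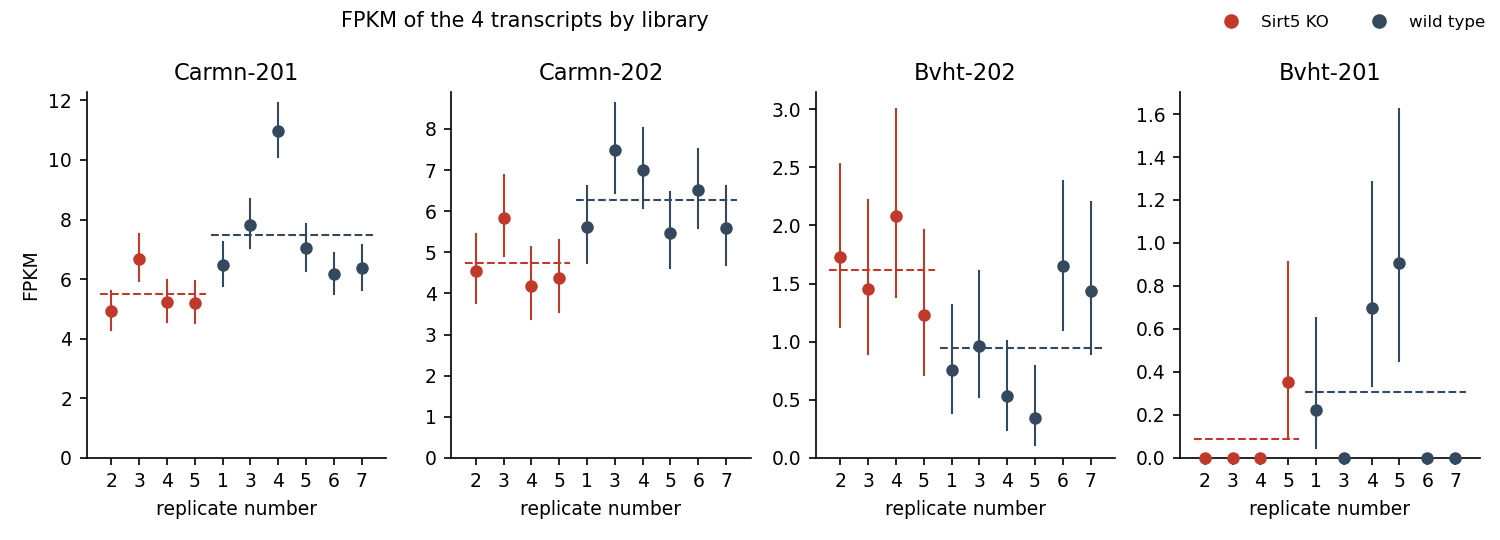
FPKM of Carmn-201, Carmn-202, Bvht-202 and Bvht-201 in each library (points), with exact Poisson 95% counting intervals from estimated fragments (vertical lines, none at 0) and genotype means (dashed), knockout left of wild type in each panel and panels on their own axes. Carmn-201 spans 4.92 to 10.97 FPKM with narrow intervals, while those of Bvht-202 are wide for their level and run from 0.110 to 0.790 FPKM in wild-type replicate 5 and from 1.38 to 3.00 FPKM in knockout replicate 4.

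Bvht was far less abundant, at rank 145 of 261, and its knockout mean was 1.37 times its wild-type mean. Its summed level was 1.73, 1.45, 2.08 and 1.58 FPKM in knockout replicates 2, 3, 4 and 5, against a lowest value of 0.959, a median of 1.24 and a highest value of 1.65 FPKM in the 6 wild-type libraries. Knockout replicates 2 and 4 lay above every wild-type library, and wild-type replicate 6, at the wild-type high, exceeded the other 2 knockout libraries, so the genotypes overlapped. The coefficients of variation of 15.9% in knockout and 21.3% in wild type were no wider than counting alone gives, 18.9 to 21.8% and 18.9 to 26.7% per library. The log2 fold change was 0.27, with a standard error of 0.113, a 95% interval of 0.02 to 0.52 and a limma adjusted p of 0.404 (unadjusted 0.0357). With a pseudocount of 0.1 in place of 1 it was 0.43 (limma adjusted p = 0.414), since adding 1 to a gene near 1 FPKM compresses its fold change.

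The split of Bvht between isoforms was uneven between libraries and rested on few fragments. Bvht-202 had 1.73, 1.45, 2.08 and 1.23 FPKM in knockout replicates 2, 3, 4 and 5, and 0.755, 0.959, 0.531, 0.339, 1.65 and 1.44 FPKM in wild-type replicates 1, 3, 4, 5, 6 and 7. Bvht-201 was above 0 in 1 of 4 knockout libraries, replicate 5 with 0.355 FPKM, and in 3 of 6 wild-type libraries, replicates 1, 4 and 5 with 0.223, 0.698 and 0.906 FPKM. The highest of these stood for 11 estimated fragments. In the 6 libraries where it was listed at 0, 3 fragments over its full length would stand for 0.218 to 0.274 FPKM per library. That is no upper limit, because a listed 0 is an estimate of the split between isoforms. Only 111 of its 483 bases are its own, and fragments on the shared bases can be assigned to Bvht-202. Where Bvht-201 was high, Bvht-202 was low: over the 10 libraries r was -0.859 (permutation p = 0.00206, adjusted 0.00313) and rho was -0.813 (permutation p = 0.00671, adjusted 0.0201). This relation weakened to -0.527 without the 2 libraries farthest from the median of Bvht-201 (permutation p = 0.214, n = 8), so it rests on wild-type replicates 4 and 5, and within wild type r was -0.909 (exact permutation p = 0.0250, n = 6). Both estimates draw on the same 372 bases, and the sum of the isoforms varied less than Bvht-202 alone, with coefficients of variation of 21.3% and 54.3% in wild type.

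Bvht-202 held 94.4 ± 11.2% of Bvht FPKM in knockout (SD, n = 4) and 74.6 ± 32.2% in wild type (SD, n = 6). It held all of it in knockout replicates 2, 3 and 4 and wild-type replicates 3, 6 and 7, and 27.2% at the lowest, in wild-type replicate 5. The shares did not differ beyond this spread (difference 19.8 percentage points, exact permutation p = 0.329), and the difference was 25.4 points without knockout replicate 5 and 26.5 points among the libraries with Rmrp above 0 (exact permutation p = 0.321 and 0.400). Tested among all transcripts, the log2 value for Bvht-202 was 0.46 (SE 0.200; limma adjusted p = 0.396, unadjusted p = 0.0424), and 0.85 with a pseudocount of 0.1 (SE 0.388, limma adjusted p = 0.443). Bvht-201 had a mean of 0.218 FPKM over the 10 libraries and did not pass the filter of 1 FPKM; at a filter of 0.1 FPKM its log2 fold change was -0.22 (SE 0.209, limma adjusted p = 0.804).

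Neither gene was called between genotypes at an adjusted p below 0.05, where 2 of 1122 genes and loci were (0.178%), 1 lower and 1 higher in knockout (0.0891% each), and 0 of the 3 transcripts tested were called, against 0.177% of 1131 transcripts. At an unadjusted p below 0.05, Bvht was among the 3.12% of genes and loci that were higher in knockout, and Carmn was not among the 8.56% that were lower. That contrast turned with the setting: the unadjusted limma p of Carmn was 0.0279 with a pseudocount of 0.1, 0.0264 at a filter of 0.1 FPKM, 0.0343 with no filter, 0.0196 without the trend and 0.0409 after rescaling to a common sum, where that of Bvht was 0.285. With the replicate block the unadjusted limma p of Bvht was 0.0800, and over single omissions it ran from 0.0164 to 0.121. Bvht-202 was among the 2.74% of transcripts that were higher at that threshold. The genotypes did not overlap in 3.21% of genes and loci, and they overlapped in both members; among transcripts the share without overlap was 2.74%, and all 3 members tested overlapped. Of all genes and loci tested, 11.9% had a lower fold change than Carmn and 11.2% a higher one than Bvht. The median log2 fold change of all was -0.03, and -0.14 after rescaling each library to a common table sum. The table sums ran from 6391 to 9707 FPKM and include Rmrp and Malat1, whose uneven values therefore enter that rescaling. Under that rescaling Carmn was at -0.55 and Bvht at 0.16, both short of the threshold (limma adjusted p = 0.325 and 0.638).

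**Figure D3:**
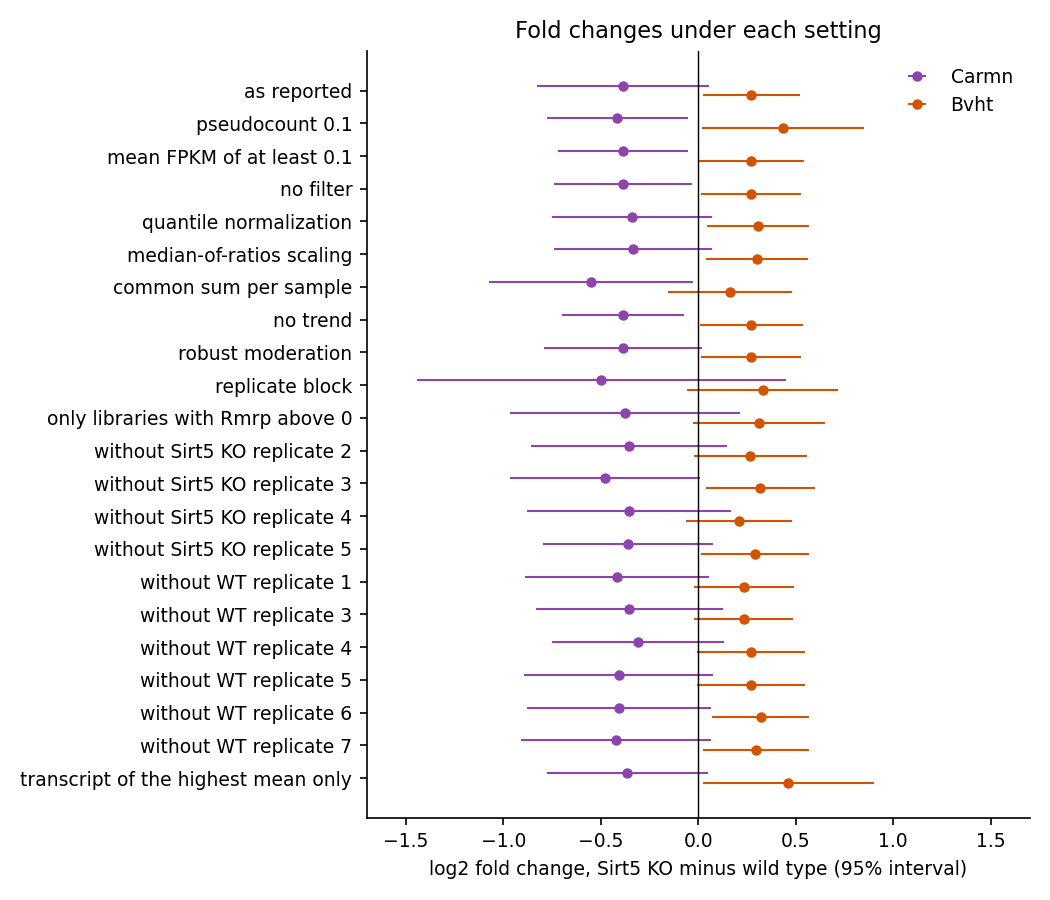
Log2 fold change of Carmn and Bvht (Sirt5 KO minus wild type, points) with 95% intervals (lines) under the reported setting and each alternative. Carmn lies between -0.55 and -0.31 and Bvht between 0.16 and 0.46 over all alternatives, with adjusted p above 0.05 throughout.

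The ratio of Bvht to Carmn compares neighbours within a library, so scaling between libraries drops out of it. Carmn exceeded Bvht in every library, by 4.53 to 8.63 times in knockout and 7.67 to 16.0 times in wild type. The ratio of Bvht to Carmn was 0.182, 0.116, 0.221 and 0.165 in knockout replicates 2, 3, 4 and 5. In wild-type replicates 1, 3, 4, 5, 6 and 7 it was 0.0808, 0.0626, 0.0684, 0.0995, 0.130 and 0.120. Of the 4 knockout libraries, 3 lay above every wild-type library, while replicate 3 lay below wild-type replicates 6 and 7. The mean ratio was 0.171 ± 0.0435 in knockout (SD, n = 4) and 0.0936 ± 0.0278 in wild type (SD, n = 6). On the log2 scale the knockout mean was higher by 0.89, a geometric mean fold of 1.85, with an exact permutation p of 0.0238 (two-sided), or 0.0714 when adjusted over the 3 exact tests of the ratio and the isoform shares. The ratio was tested in the knowledge that the knockout means of Carmn and Bvht lay on opposite sides of wild type, so it is not evidence independent of them.

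Counting error in Bvht widens each of these ratios: the exact binomial 95% interval was 0.144 to 0.325 in knockout replicate 4, the highest, and 0.0340 to 0.106 in wild-type replicate 3, the lowest. Without knockout replicate 5, which stood apart in Malat1, the log2 difference was 0.89 (exact permutation p = 0.0476, unadjusted like those that follow). Without knockout replicate 4 it was 0.75 (exact permutation p = 0.0595), and among the 3 knockout and 3 wild-type libraries with Rmrp above 0 it was 0.94, where the smallest p that the design allows is 0.1 and the exact permutation p was 0.200. From Bvht-202 and Carmn-201 alone, the isoforms of the highest means, it was 1.37 (exact permutation p = 0.0619). Wild-type replicates 4 and 5, in which Bvht-201 took up part of the Bvht signal, had the lowest such isoform ratios, at 0.0484 and 0.0482.

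**Figure D4:**
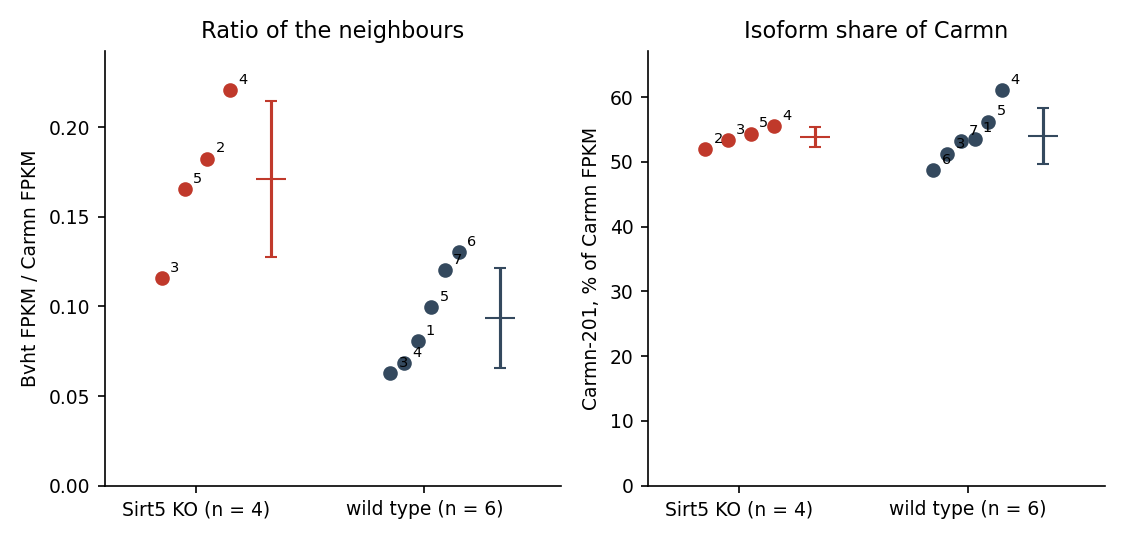
Left, ratio of Bvht to Carmn FPKM in each library; right, share of Carmn FPKM held by Carmn-201, in percent (points sorted within genotype and marked with replicate numbers; bars are mean ± SD). The ratio reaches 0.221 in knockout and 0.130 in wild type with knockout replicate 3 inside the wild-type range, and the isoform share has means of 53.8% and 54.0%.

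Across the 10 libraries Carmn and Bvht ran in opposite directions, with an r of -0.687 on log2(FPKM + 1) (permutation p = 0.0285, adjusted over 3 relations 0.0285) and a rho of -0.661 (permutation p = 0.0446, adjusted 0.0446). These values pool genotypes whose means lay apart in opposite directions for the 2 genes, so they are not evidence independent of the fold changes. Without the 2 libraries farthest from the median of Carmn, r was -0.684 (permutation p = 0.0591, n = 8). Within wild type it was -0.267 (exact permutation p = 0.658, n = 6), and the 4 knockout libraries are too few for a value of their own. Over all libraries it was -0.207 once each was rescaled to the same table sum (permutation p = 0.559). Uneven values of Rmrp and Malat1 enter that sum, and their part in this weaker r was not tested. Leaving out knockout replicate 2, knockout replicate 4 or wild-type replicate 3 gave -0.65, -0.60 and -0.61, each with a permutation p above 0.05 (0.0599, 0.0888 and 0.0776, n = 9).

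**Figure D5:**
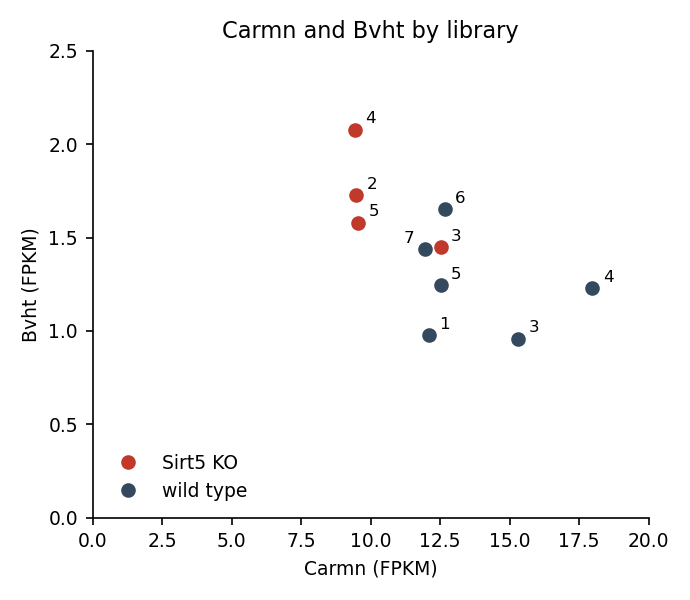
Bvht against Carmn in FPKM, 1 point per library, marked with its replicate number. Knockout replicates 2, 4 and 5 sit at the upper left with Carmn between 9.42 and 9.56 FPKM, knockout replicate 3 lies next to wild-type replicate 7, and wild-type replicate 4 lies alone at 18.0 FPKM.

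Few other non-coding genes of the table lie near the pair. Within 1000000 bases of Carmn there were 7, of which 5 were above 0 in any library and 1 reached a mean of 1 FPKM. That gene, the lincRNA AC153155.2 on the minus strand (61470225 to 61484607), lies 165017 bases from Carmn. Its level was 2.14 ± 1.97 FPKM in knockout (SD, n = 4) and 2.91 ± 1.96 FPKM in wild type (SD, n = 6). The lincRNA AC153155.1, 160404 bases from Carmn, had 0.937 ± 1.21 and 0.405 ± 0.552 FPKM in knockout and wild type (SD, n = 4 and n = 6). The antisense gene 1500015A07Rik, 60852 bases beyond the start of Carmn, had 0.318 ± 0.226 and 0.347 ± 0.194 FPKM in knockout and wild type (SD, n = 4 and n = 6). Gm9949 and AC124430.1 reached at most 0.159 and 0.0409 FPKM in any library. Gm38165, the nearest at 25508 bases, was listed at 0 in all 10 libraries, as was Gm37774. Loci that StringTie assembled itself carry no coordinates in the table, so any of them at Carmn or Bvht was not assigned.

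Among microRNA host genes, 16 of 20 listed were in the table and 7 were tested, 4 with a higher and 3 with a lower fold change and 0 past the threshold (limma, 0 at an unadjusted p below 0.05). The median log2 fold change was 0.02, against -0.03 over all genes and loci. Carmn had the lowest value of the 7. Of 32 long non-coding RNAs listed for heart and vessel, 28 were in the table and 17 were tested. Of these, 9 had a fold change above 0 and 8 one below 0, with a median of 0.02, and 0 passed. At an unadjusted p below 0.05 there were 3 of 17 (limma), where 11.7% of all genes and loci were: Tug1 at 0.66 (SE 0.263, adjusted p = 0.404), Rmst at -0.71 (SE 0.169, adjusted p = 0.127) and Tbx3os1, opposite the conduction system factor Tbx3, at -0.39 (SE 0.114, adjusted p = 0.268). The other host genes tested stand on this list as well.

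Of 259 other annotated genes tested, those whose log2(FPKM + 1) ran most like that of Carmn over the 10 libraries were Gm20619 (r = 0.867), Gm13380 (r = 0.860), Gm45012 (r = 0.768), 4930480K23Rik (r = 0.749) and Gm19461 (r = 0.726), all on other chromosomes. Gm20619, a lincRNA on chromosome 6, had 1.04 ± 0.626 FPKM in knockout and 2.38 ± 0.549 FPKM in wild type (SD, n = 4 and n = 6), and its r within wild type was 0.822. The genes most opposed to Carmn were Zswim6 (r = -0.769), AC154492.2 (r = -0.715) and C030037D09Rik (r = -0.625). Those most like Bvht were Snhg20, a host of small nucleolar RNA (r = 0.757), AC154492.2 (r = 0.681), AC138768.2 (r = 0.631), Gm37062 (r = 0.595) and Gm37902 (r = 0.584). Gm49759 (r = -0.794), Gm13563 (r = -0.759) and Gm13380 (r = -0.737) ran most opposed to it. AC154492.2 and Gm13380 appear for both members with opposite signs. Within wild type AC154492.2 had an r of 0.114 with Carmn and 0.123 with Bvht, and its level was 2.82 ± 0.180 FPKM in knockout and 1.97 ± 0.125 FPKM in wild type (SD, n = 4 and n = 6). These correlations are a description of 10 libraries that share the same 2 genotypes, and the extremes of 259 values.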

How the data were processed

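The deposited table gives the authors' FPKM per transcript and sample. Per the series' text and the submitters' processing notes, ribosomal RNA was removed (2 kits and 2 sequencers are named, not assigned to samples), second-strand cDNA was digested, reads were mapped to GRCm38 with HISAT2 (no version stated) and FPKM were computed with StringTie 1.2.0; HTSeq 0.6.1 is also named. How the long non-coding transcripts of the table were chosen, and whether StringTie used strand, are points not given in the sources used here; RNA running past the annotated end of Carmn could then be counted for Bvht, which was not tested. StringTie divides fragments between overlapping isoforms by estimation, so isoform levels are less certain than their sums.

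Identifiers were matched to GENCODE M21 on GRCm38 (18969 of 19112 Ensembl transcripts; 1629 further transcripts were assembled by StringTie). FPKM were summed per gene, and of genes sharing a symbol 16 of lower mean were set aside. Genes and loci averaging 1 FPKM or more over the libraries, 1122 in all, were tested on log2(FPKM + 1), which understates the change of low genes, with limma 3.58.1 in R 4.3.3 (intensity trend, genotype as the only term, Benjamini-Hochberg, adjusted p below 0.05), and transcripts likewise. Ratios and shares were compared by exact permutation, correlations by 100000 permutations, in Python 3.11.15 with SciPy 1.17.1. All tests were two-sided. The limma fit was run on simulated data with independent noise and shifts larger than those of Carmn and Bvht. That run does not bear on shifts of their size. Depth was estimated from the step of 1 fragment in single-exon transcripts, sought only between 25 and 60 (FPKM times bases). Of values below 3.5 fragments, 62.8 to 72.6% lay within 5% of a whole multiple. With multiples of 0.5 fragments allowed, 84.5 to 88.8% lay within it. A unit of 0.5 of that step, which would mean more fragments and smaller counting errors, was not tested.

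The replicate numbers 3, 4 and 5 occur in both genotypes. Genes were named by these rules: both members and their transcripts, the 5 annotated genes most and 3 least correlated with each, table genes within 1000000 bases, and members of the heart and vessel list at an unadjusted p below 0.05, with Rmrp and Malat1 as values that mark libraries. Members, lists and tests were chosen with earlier results of these data known. Alternatives were another pseudocount, filters, scalings, moderation, a replicate block, and leaving out libraries.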

Additional observations from a re-analysis of the deposited data

Results flagged for a closer look

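Of 18 groups of values (9 measures of Carmn and Bvht in 2 genotypes), 4 had a library farther from the others of its genotype than Dixon's test allows at 95%. Chance flags about 1 in 20 groups of independent values, but these measures contain one another, so no chance count is given for them. Carmn was at 12.5 FPKM in knockout replicate 3, against 9.42 to 9.56 FPKM in the other knockout libraries. Carmn-201 was at 10.97 FPKM in wild-type replicate 4, against 6.17 to 7.83 FPKM in the other wild-type libraries. Bvht-201 was at 0.355 FPKM in knockout replicate 5 and listed at 0 in the other knockout libraries, which put the share of Bvht-202 at 77.5% in that library and at 100% in the others. The last 2 are the same 4 estimated fragments, and with the other 3 values identical any value unlike them would have been flagged, whatever its size.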

How the results depend on the processing

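The fold changes of Carmn, Bvht, Carmn-201, Carmn-202 and Bvht-202 kept their direction and stayed short of the threshold under all alternatives run, 21 for each gene and 20 for each transcript. The log2 fold change of Carmn ran from -0.55 to -0.31 and that of Bvht from 0.16 to 0.46. The count of genes and loci called was 2 as reported and ran from 0 to 2 over single omissions, with 0 without knockout replicate 2 and 1 without wild-type replicate 3, 4, 5, 6 or 7; it was 1 at a filter of 0.1 FPKM, without the trend and with only libraries in which Rmrp is above 0, 0 with no filter and with the replicate block, 4 after quantile normalization, 5 with robust moderation and 7 after rescaling to a common sum. The count of transcripts called, also 2, was 0 without knockout replicate 2 or 3 or wild-type replicate 1, 4, 5, 6 or 7, 3 without wild-type replicate 3 and 6 without knockout replicate 4; of the other alternatives it was 2 after rescaling to a common sum and with only libraries in which Rmrp is above 0, and 0 in the rest.

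The higher log2 ratio of Bvht to Carmn (0.89) kept its sign in all 14 alternatives, with 0.75 to 1.06 over single omissions. Its exact permutation p was 0.0238 as reported, and 0.0714, above 0.05, once adjusted over the 3 exact tests. The p-values of the alternatives were not adjusted. Even so, p was above 0.05 with only libraries in which Rmrp is above 0 (0.94), from the leading isoforms (1.37) and without knockout replicate 4. It was also above 0.05 with the replicate block, as a mean difference of 1.103 over 3 same-numbered pairs, where the smallest possible p is 0.25. The difference in Carmn-201 share, -0.17 points, ran from -1.23 to 1.24 over single omissions and turned to 0.45 without knockout replicate 2, 1.24 without wild-type replicate 4 and 0.28 without wild-type replicate 5; that in Bvht-202 share kept its sign, from 10.3 to 35.7 points. The correlation of Carmn with Bvht ran from -0.79 to -0.60 over single omissions, losing its call without knockout replicate 2 or 4 or wild-type replicate 3, and lost its call at -0.684 without the 2 libraries farthest from the median of Carmn, -0.207 after rescaling to a common sum and -0.267 in wild type alone. The causes were not tested, beyond the fewer samples in some of these.

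Same-numbered samples did not deviate together throughout: the correlations of their deviations across genes were -0.163, 0.176 and 0.0807 for numbers 3, 4 and 5, and only knockout replicate 4 correlated best with its own number. With the replicate block the log2 fold change was -0.50 for Carmn and 0.33 for Bvht (limma adjusted p = 0.724 and 0.586). With 14 to 28 fragments per library, counting error alone limits what can be said of Bvht and still more of its isoforms.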
